A study of Caenorhabditis elegans with 9 samples.

Results

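Day 15 adults of *C. elegans* were compared with L4 larvae of the same strain to find which transcripts ended below the larval level in old animals, which returned to it and which ended above it. The comparison uses 6 of the 9 arrays of the series, the 3 titled as Day 15 adults and the 3 titled as L4 larvae, and the 3 arrays of Day 6 adults are given beside them to show the way between. All worms were of the wild type strain Bristol N2, hatched from bleached eggs, starved overnight as L1 larvae to synchronise them and fed *E. coli* OP50 at 20°C. The L4 larvae were collected after 2 days of feeding and had not met FUdR, a drug that blocks DNA synthesis and keeps eggs from hatching, whereas the Day 6 and Day 15 adults had aged on plates with 0.05 mg/mL of it. Age and FUdR therefore cannot be told apart in any value below. For each array 100 ng of total RNA from whole worms was amplified, and the labels give the 3 arrays of an age as independent biological replicates. In whole worms, fewer cells of a type and less RNA per cell cannot be told apart either.

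The L4 stage is the last of the larval stages. In it the epidermis makes the adult cuticle, a layered collagen coat that is shed and rebuilt at each moult, and the germ line makes sperm before it switches to oocytes for the rest of life. The adult no longer moults, and most of its somatic cells no longer divide, so the germ line is the main dividing tissue of the adult worm. With age the worm's muscles, intestine and germ line deteriorate visibly, and bacteria build up in its gut.

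Values are log2 expression values from GCRMA, a method that models background from the base content of each probe and then puts all arrays on a common scale, so that a difference of 1 is a 2-fold change. Each of 17118 genes is represented by its probe set with the highest mean, and 11758 were tested because their mean reached 4 at 1 or more of the ages. A gene that passed through 1 age only had to be higher there than at the other ages, so its direction was set by the filter. Values under 4 lie near the background. A fold change is therefore given with values under 4 set to 4 and is written as "at least" where this floor made it smaller. Each gene is given with its change, the standard error (SE) of that change and the adjusted p of limma, a linear model fitted to all genes and all 9 arrays. A gene is said to rise or fall where this p, adjusted by Benjamini-Hochberg over all genes tested, was under 0.05 and the change at least 2-fold. Changes are Day 15 minus L4 throughout, unless another pair of ages is named. Of the 17118 genes, 4445 are represented by probe sets that can match several transcripts, which concerns above all the families of near-identical copies such as the major sperm proteins, the collagens and the small heat shock genes.

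The 3 Day 15 arrays were nearly alike (r between 0.993 and 0.995 over probe sets), and the 3 L4 arrays less so (0.954 to 0.986). L4 replicate 2 stood apart. It lay nearer to the Day 15 arrays (r between 0.849 and 0.852) than L4 replicates 1 and 3 did (0.800 to 0.815). Its level was at least 2-fold above the mean of replicates 1 and 3 for 1398 genes and at least 2-fold below it for 1734. Its oocyte genes were higher by a median of 1.97 and its genes for the cell cycle by 1.23, while its pharynx genes had a median difference of -1.86 and its hedgehog-related genes of -1.74. Without this array 3278 genes fell and 3934 rose, of which 3028 and 3633 also did so with it, and no call changed its sign. Values without it are given for some of the genes and lists whose calls differ, and not for all. For example, 46 hedgehog-related genes fell without it in place of 42, and 38 nuclear hormone receptors in place of 33. The label of the larvae was checked against genes of known timing. The cuticle genes rol-6 (11.55, 9.53 and 11.90) and bli-1 (9.51, 7.73 and 10.12) were well above background in L4 larvae and under 4 at Day 15. Yolk genes and the adult collagen gene col-19, which are known to be switched on at the passage to adulthood, were also high in every L4 array, with 12.75, 13.11 and 12.93 for col-19 (ZK1193.1) and 13.28, 13.21 and 12.94 for vit-2 (C42D8.2). How late in L4 these larvae were, or whether they were already moulting to adults, cannot be told from the labels. The larval level below is therefore the level in these arrays. The levels of a set of markers are given as the log2 of their sum on the linear scale, per array. None of the 6 embryo markers reached a mean of 4 at L4 or at Day 15. Markers of the intestine, body wall muscle, neurons, pharynx, sperm and germ cells were detected at both ages except ceh-22 (pharynx), unc-31 (neurons) and spe-9 (sperm), which were under 4 at both, while 4 of the 5 epidermis markers (dpy-7, bli-1, rol-6 and wrt-2) were under 4 at Day 15.

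The net change was broad in both directions. From L4 to Day 15, 3138 genes fell, which is 26.7% of the genes tested, and 3796 rose, which is 32.3%. The counts of every gene list below are to be set beside these shares. Large changes were more often falls. With the floor, 882 genes (7.5%) were lower by 10-fold or more and 443 (3.77%) were higher by as much, and beyond 100-fold there were 149 (1.27%) against 13 (0.111%). The change of the middle gene was 0.23, or 0.15 with the floor. For 2114 genes (18%) the 95% interval of the change lay within 2-fold in both directions. In 3825 genes (32.5%) all 3 Day 15 arrays lay below all 3 L4 arrays and in 4833 (41.1%) they all lay above, and 3054 of the falls and 3709 of the rises were of this kind. The plot of Day 15 against L4 levels shows both directions. Of the genes that fell, 1069 ended with a Day 15 mean under 4, and of those that rose, 917 started from an L4 mean under 4. The number of arrays limits the precision, and a gene's standard error had a median of 0.27.

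**Figure D1:**
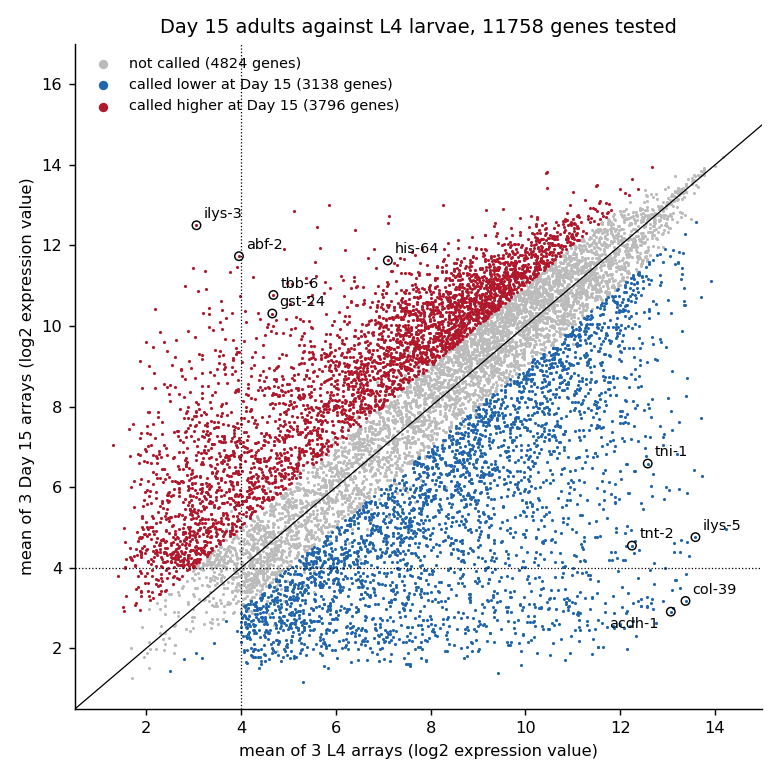
Mean of the 3 Day 15 arrays against the mean of the 3 L4 arrays for the 11758 genes tested, on log2 expression values. Blue points are the 3138 genes that fell, red points the 3796 that rose and grey points the 4824 not called, the solid line marks equal levels, the dotted lines mark 4, and circles mark genes named in the text.

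Day 6 divides these changes by when they were seen. From L4 to Day 6, 24.6% of the genes tested fell and 29.3% rose, and from Day 6 to Day 15, 17% fell and 16.4% rose. Comparisons with Day 6 share arrays with the net comparison, so the classes are a description of the path and not separate evidence. Of the 3138 genes below the larval level, 1170 had fallen by Day 6 and had no further call, 565 had fallen by Day 6 and fell again, and 741 had no call at Day 6 and fell afterwards. A further 241 had regained a part of an earlier fall, 80 had been above the larval level at Day 6, and 341 were called only over the whole span. Of the 3796 genes above the larval level, 2184 were raised by Day 6 with no further call, 353 rose again, 443 rose only after Day 6, 191 had lost part of an earlier rise, 102 had been below the larval level at Day 6, and 523 were called only over the whole span. Genes whose fall at Day 6 was undone are a smaller class. In 681 genes a fall to Day 6 and a rise from Day 6 left no net call, and in 196 of them (1.67% of the genes tested) the 95% interval of the net change lay within 2-fold, which is the meaning of "regained" below. The opposite path, a rise and then a fall, left no net call in 288 genes, with 122 (1.04%) regained by the same measure. Examples of the paths are shown in the plot of single genes by array.

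**Figure D2:**
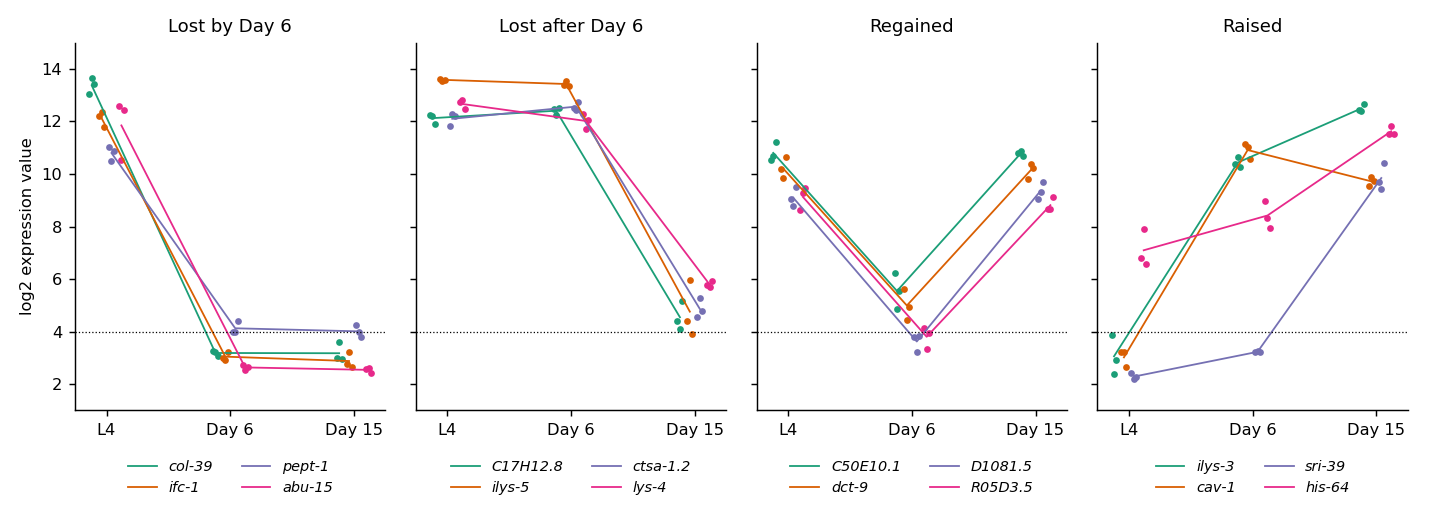
Log2 expression values of 16 genes in each of the 9 arrays (points) with the age means joined by lines, for genes lost by Day 6, lost after Day 6, regained by Day 15 and raised by Day 15. The dotted line marks 4, and in the regained genes all Day 6 points lie under all L4 and Day 15 points.

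The cuticle collagens gave the largest falls of the comparison. Collagens are the structural proteins of the cuticle, made in bursts at each moult. Of 119 collagen genes tested (of 146 on the array), 101 fell, 6 rose and 12 were not called, with a median change of -5.61 (-5.11 with the floor), and 73 were lower by 10-fold or more. Of the 12 largest falls, taken with the floor among genes whose L4 and Day 15 arrays did not overlap, 11 were collagens. The largest was that of col-39 (C09G5.4), with 13.06, 13.64 and 13.43 in the L4 arrays, 3.28, 3.22 and 3.06 at Day 6 and 2.99, 3.59 and 2.95 at Day 15. Its change was -10.20 (SE 0.23, adjusted p = 8.9e-09), which is at least 665-fold. The gene col-139 (F41F3.4) went from 14.03, 14.35 and 14.29 to 4.84, 5.19 and 4.86 and so kept a level above background, with a change of -9.26 (SE 0.22, adjusted p = 9.8e-09), 613-fold lower. In col-159 (F57B1.3) the loss came in steps, with 12.95, 13.30 and 13.23 at L4, 7.13, 7.09 and 8.04 at Day 6 and 3.54, 4.05 and 3.53 at Day 15, a net change of -9.45 (SE 0.29, adjusted p = 2.3e-08). That no Day 15 array reached any L4 array in these genes was a condition of their choice. The adult collagen col-19 (ZK1193.1) fell late, from 12.75, 13.11 and 12.93 at L4 and 11.52, 11.74 and 11.89 at Day 6 to 7.87, 8.11 and 5.98 at Day 15, a change of -5.61 (SE 0.49, adjusted p = 1.1e-05). It is named because it marks the adult cuticle, and was chosen after its values were seen.

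A few collagens ended above the larval level. The gene dpy-17 (F54D8.1), whose product is needed for normal body length, had 4.49, 4.92 and 4.32 at L4, 8.33, 7.55 and 8.07 at Day 6 and 9.88, 10.36 and 9.89 at Day 15, a change of 5.47 (SE 0.26, adjusted p = 2.8e-07), 44.2-fold. The gene col-183 (F02D10.1) was highest at Day 6 (12, 11.67 and 11.72) and stood at 8.68, 8.77 and 8.26 at Day 15 against 4.78, 4.86 and 5.38 at L4, a change of 3.56 (SE 0.23, adjusted p = 1.5e-06). Their Day 15 arrays all lay above their L4 arrays.

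Factors that act in moulting and epidermal patterning fell with the collagens. Of 29 moulting genes 19 fell and 3 rose (median -2.18). The protease inhibitor gene bli-5 (F45G2.5) had 11.65, 10.30 and 11.60 at L4 and 3.69, 4.04 and 3.85 at Day 15, a change of -7.32 (SE 0.34, adjusted p = 2.4e-07), at least 144-fold. The gene acn-1 (C42D8.5), which encodes a relative of angiotensin-converting enzyme needed for moulting, had 11.84, 9.23 and 11.69 at L4 and 6.14, 5.69 and 5.71 at Day 15, a change of -5.07 (SE 0.60, adjusted p = 7.9e-05). L4 replicate 2 was the lowest larval array in both, and over the moulting list its median difference from the other L4 arrays was -0.92. Against the list, nhr-23 (C01H6.5), a nuclear receptor that drives the moulting cycle, had 5.05, 7.65 and 6.36 at L4 and 8.44, 8.30 and 8.57 at Day 15, a rise of 2.08 (SE 0.53, adjusted p = 0.0066) in which L4 replicate 2 was again nearest to the adults. Of 22 astacin metalloproteases, a family that holds the cuticle-shedding enzyme nas-36, 14 fell and 2 rose. The gene nas-36 (C26C6.3) itself went from 9.37, 6.69 and 10.08 to 4.08, 4.23 and 4.10, a change of -4.58 (SE 0.72, adjusted p = 0.00044), and nas-7 (C07D10.4) from 10.95, 9.88 and 11.01 to 4.54, 3.78 and 4.10, a change of -6.47 (SE 0.33, adjusted p = 3.8e-07). The gene nas-9 (C37H5.9) had 7.15, 8.82 and 6.35 at L4 and 9.46, 9.22 and 8.67 at Day 15, a change of 1.68 (SE 0.54, adjusted p = 0.02) in which L4 replicate 2 overlapped the adults and which lost its call in 5 of 19 settings.

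*C. elegans* has no true hedgehog ligand but large families of hedgehog-related and patched-related genes, many of them active in the epidermis around moults. Of 57 tested, 42 fell and 5 rose (median -2.38), and 18 fell by 10-fold or more. The ground-like gene grl-16 (Y65B4BR.6) had 12.98, 11.36 and 13.36 at L4 and was at 3.61, 3.5 and 3.58 already at Day 6, with 3.14, 3.49 and 3.20 at Day 15, a change of -9.29 (SE 0.44, adjusted p = 2.7e-07), at least 379-fold. In contrast grd-5 (F41E6.2) was lost mainly after Day 6, with 12.09, 11.68 and 11.86 at L4, 10.53, 9.88 and 10.52 at Day 6 and 2.97, 2.91 and 2.74 at Day 15, a net change of -9 (SE 0.22, adjusted p = 1e-08). The patched-related gene ptr-22 (Y80D3A.7) ran the other way, with 2.16, 1.66 and 2.16 at L4, 6.89, 6.68 and 5.62 at Day 6 and 10.01, 9.14 and 9.67 at Day 15, a change of 7.61 (SE 0.36, adjusted p = 2.7e-07), at least 48.7-fold. Neither direction had overlapping arrays. Heterochronic genes, which time larval development, were mixed, with 5 of 11 lower and 2 higher. The gene lin-29 (W03C9.4), which encodes the zinc finger factor that triggers the larva to adult switch, fell from 9.19, 8.69 and 8.70 to 6.36, 5.75 and 6.23, a change of -2.75 (SE 0.22, adjusted p = 6e-06). The gene lin-41 (C12C8.3), which acts upstream of lin-29 in larvae and also in oocytes, rose from 4.25, 6.53 and 4.87 to 8.80, 9.21 and 9.19, a change of 3.85 (SE 0.50, adjusted p = 0.00013).

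Genes of the contractile apparatus of body wall muscle fell nearly as a block. Of 47 tested, 38 fell and 0 rose (median -2.27), against 26.7% lower and 32.3% higher over all genes. The troponin T gene tnt-2 (F53A9.10) had 12.28, 12.22 and 12.24 at L4, 9.60, 9.41 and 9.52 at Day 6 and 4.24, 4.82 and 4.59 at Day 15, a change of -7.70 (SE 0.18, adjusted p = 1e-08), 207-fold lower. The troponin I gene tni-1 (F42E11.4) went from 12.55, 12.51 and 12.68 over 8.34, 7.81 and 7.98 to 6.80, 6.37 and 6.59, a change of -5.99 (SE 0.20, adjusted p = 3.3e-08). The gene csq-1 (F40E10.3), for the calcium store protein calsequestrin, went from 11.18, 11.15 and 11.22 over 9.07, 8.62 and 9.02 to 5.70, 5.49 and 4.72, a change of -5.88 (SE 0.26, adjusted p = 1.9e-07). In all 3 the L4 arrays differed by less than 0.2, L4 replicate 2 included, and every age lay apart from the next. Over the list the median change was -1.01 from L4 to Day 6 and -1.14 from Day 6 to Day 15. Not called were act-3, act-4, egl-19, ketn-1, pat-3, sca-1, ttn-1, unc-22 and unc-78. The muscle marker set, summed per array, lay between 14.94 and 15.01 at L4 and between 12.46 and 12.74 at Day 15.

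The basement membrane beneath muscle and epidermis followed in part, with 10 of 18 genes lower and 2 higher (median -1.11). The nidogen gene nid-1 (F54F3.1) fell from 11.25, 10.25 and 10.65 to 7.28, 6.59 and 6.66, a change of -3.87 (SE 0.31, adjusted p = 6.3e-06). The papilin gene mig-6 (C37C3.6) kept its larval level at Day 6 (11.18, 11.03 and 11.38, against 10.92, 11.76 and 11.14 at L4) and had 6.95, 7.23 and 6.58 at Day 15, a change of -4.35 (SE 0.26, adjusted p = 1.1e-06), or -2.56 with the mean of its probe sets. The perlecan gene unc-52 (ZC101.2) fell from 10.34, 10.78 and 11.18 to 4.15, 4.26 and 4.04 by its brightest probe set, a change of -6.62 (SE 0.23, adjusted p = 5.3e-08), while the mean of its probe sets changed by -3.85. Its arrays did not overlap by the brightest probe set. The fibulin gene fbl-1 (F56H11.1) gave no settled direction, with 1.68 (SE 0.57, adjusted p = 0.025) by its brightest probe set and -1.78 by the mean of its probe sets, with overlapping arrays and no call without L4 replicate 2. Pharyngeal genes gave some of the steepest falls, with 17 of 24 lower and only peb-1 (T14F9.4), a transcription factor of the pharynx, higher (median -3.48). The genes with abu names, which encode glutamine- and asparagine-rich proteins of the pharyngeal cuticle, were near background by Day 6. The gene abu-15 (C03A7.4) had 12.58, 10.52 and 12.45 at L4, 2.71, 2.54 and 2.66 at Day 6 and 2.59, 2.62 and 2.42 at Day 15, a change of -9.31 (SE 0.47, adjusted p = 4e-07), at least 231-fold. L4 replicate 2 was lowest here too, yet far above every adult array.

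The intestine lost transcripts of its brush border, its digestive enzymes and its proton pump. Of 35 intestine genes 24 fell and 3 rose (median -2.94). The intermediate filament gene ifc-1 (F37B4.2), part of the terminal web below the brush border, had 12.20, 12.38 and 11.80 at L4, 2.99, 2.93 and 3.22 at Day 6 and 2.78, 3.22 and 2.64 at Day 15, a change of -9.25 (SE 0.22, adjusted p = 1e-08), at least 279-fold. pept-1 (K04E7.2), the intestinal transporter of di- and tripeptides, went from 11.02, 10.51 and 10.87 to 4.25, 3.97 and 3.81, a change of -6.79 (SE 0.21, adjusted p = 2.9e-08), and the acid phosphatase gene pho-1 (EGAP2.3) from 11.69, 10.74 and 11.13 to 4.72, 4.19 and 4.63, a change of -6.67 (SE 0.30, adjusted p = 2.1e-07). All 3 were at or near background by Day 6, and none of their adult arrays came within 4 units of a larval one. The 6 intestine markers, summed per array, lay between 14.13 and 14.40 at L4, 11.68 and 12.26 at Day 6 and 9.88 and 10.49 at Day 15. Against the list, the fatty acid desaturase gene fat-5 (W06D12.3) rose from 4.82, 4.32 and 4.76 over 12.17, 11.81 and 12.32 to 10.19, 9.95 and 9.46, a change of 5.23 (SE 0.25, adjusted p = 2.6e-07), and gem-4 (T12A7.1), a copine gene, from 6.49, 6.01 and 5.83 to 11.48, 11.04 and 11.21, a change of 5.13 (SE 0.22, adjusted p = 1.4e-07). The transcription factor gene mdt-15 was the third that rose.

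The vacuolar proton pump, which acidifies lysosomes and the lumen of epithelia, had 16 of 19 subunit genes lower and 1 higher (median -1.95). The gene vha-6 (VW02B12L.1), for the subunit of the intestinal apical membrane, went from 11.83, 11.99 and 11.73 over 10.27, 10.14 and 10.63 to 6.89, 7.26 and 7.33, a change of -4.69 (SE 0.20, adjusted p = 1.4e-07), 25.8-fold. The gene vha-19 (Y55H10A.1) fell in the same order, with 11.09, 11.18 and 11.20 at L4 and 6.92, 7.26 and 7.36 at Day 15 and a change of -3.98 (SE 0.19, adjusted p = 2.4e-07). The gene that rose, vha-7 (C26H9A.1), had 6.89, 9.07 and 7.85 at L4 and 9.42, 9.42 and 9.45 at Day 15, a change of 1.49 (SE 0.45, adjusted p = 0.015), with its larval arrays spread widely. Of the 5 yolk genes vit-1 and vit-4 fell, and none rose. The gene vit-1 (K09F5.2) had 12.06, 12 and 11.39 at L4, 11.39, 11.53 and 11.78 at Day 6 and 4.23, 4.09 and 4.28 at Day 15, a change of -7.62 (SE 0.22, adjusted p = 1.8e-08), 196-fold. The gene vit-2 (C42D8.2) had 13.28, 13.20 and 13.19 at Day 15, a change of 0.08 (SE 0.16, adjusted p = 0.66) whose 95% interval ran from -0.28 to 0.44. The change of vit-4 was -1.22, or -2.67 with the mean of its probe sets, and those of vit-5 (-0.54) and vit-6 (-0.84) did not reach 2-fold. The copies of this family are alike enough for their probe sets to share transcripts.

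Genes known to answer to infection were mostly lost. Of 22 tested, 14 fell and 6 rose (median -4.52, or -3.71 with the floor, and -0.63 with no filter on low values), with 9 lower at Day 6 than at L4 and 12 lower at Day 15 than at Day 6. The list also holds the heat shock factor gene hsf-1, which rose. irg-4 (F08G5.6), an infection response gene with a CUB-like domain, went from 12.25, 12.19 and 12.36 over 8.71, 9.94 and 9.69 to 3.33, 2.93 and 3.11, a change of -9.14 (SE 0.30, adjusted p = 3.5e-08), at least 308-fold. C17H12.8 and T24B8.5, whose transcripts the study follows with age as outputs of the PMK-1 p38 pathway, ended far below the larval level. C17H12.8 kept that level at Day 6, with 12.26, 12.22 and 11.90 at L4 and 12.48, 12.24 and 12.51 at Day 6, and stood at 4.40, 4.09 and 5.15 at Day 15. Its net change was -7.58 (SE 0.27, adjusted p = 5.5e-08), 191-fold lower. sysm-1 (T24B8.5) was higher at Day 6 (11.43, 11.43 and 11.23) than in larvae (8.27, 8.84 and 9.18) and under background at Day 15 (1.92, 2.28 and 1.91), with a net change of -6.73 (SE 0.24, adjusted p = 6e-08), at least 27.2-fold. In both, every Day 15 array lay under every other array of the series. Other targets that the study names did not share this size or direction of change. The gene spl-2 (B0222.4), named tag-38 in the study, had 5.58, 4.96 and 6.96 at L4 and 3.42, 3.72 and 4 at Day 15, a change of -2.12 (SE 0.46, adjusted p = 0.0028). The target nlp-31 rose by 1.35 and is given with the antimicrobial peptides below. F55G11.8 had left its larval level by Day 6, from 10.85, 10.70 and 10.95 over 2.43, 2.52 and 2.65 to 1.58, 1.82 and 1.75, a change of -9.12 (SE 0.16, adjusted p = 6.9e-09). Among those higher at Day 15, fipr-24 (C37A5.8) went from 2.57, 2.79 and 2.47 to 8.76, 8.80 and 7.91, a change of 5.88 (SE 0.26, adjusted p = 1.7e-07), while irg-2 (C49G7.5) went from 5.15, 9.13 and 3.89 to 9.42, 8.69 and 9.16, a change of 3.03 (SE 1.09, adjusted p = 0.032) in which L4 replicate 2 overlapped the adults and which lost its call in 7 of 20 settings.

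Lysozymes, which break down bacterial cell walls, had members in both directions. Of 12, 6 fell and 4 rose, or 50% and 33.3%, beside 26.7% and 32.3% of all genes. The share that rose was thus close to that of all genes. The gene ilys-5 (F22A3.6) was among the brightest of the array at L4 and Day 6 (13.63, 13.54 and 13.59 and 13.39, 13.53 and 13.36) and had 4.41, 5.96 and 3.91 at Day 15, a change of -8.83 (SE 0.44, adjusted p = 3.6e-07), at least 445-fold. The gene lys-4 (F58B3.1) took the same late path, from 12.73, 12.81 and 12.46 over 12.28, 11.72 and 12.06 to 5.77, 5.69 and 5.92, a change of -6.87 (SE 0.20, adjusted p = 1.8e-08), and so did lys-2 and lys-1. The largest rise of the whole comparison was that of ilys-3 (C45G7.3), an invertebrate-type lysozyme of the intestine and pharynx, with 3.88, 2.39 and 2.91 at L4, 10.39, 10.65 and 10.27 at Day 6 and 12.43, 12.40 and 12.67 at Day 15. Its change was 9.44 (SE 0.34, adjusted p = 5.6e-08), at least 362-fold. Its neighbour in the family ilys-2 (C45G7.2) rose from 2.79, 4.18 and 3.23 to 9.12, 10.55 and 10.01, a change of 6.49 (SE 0.44, adjusted p = 2.3e-06). Of 87 C-type lectins tested (of 220 on the array), carbohydrate-binding proteins of which many respond to microbes, 47 fell and 18 rose. Their median change was -1.59, and over the other settings it lay between -1.92 and -0.19. These counts describe the 87 tested and not the family. The gene clec-66 (F35C5.9) had fallen by Day 6 (11.10, 11.48 and 10.71 to 5.20, 4.21 and 5.15, and 3.40, 3.23 and 3.29 at Day 15), a change of -7.79 (SE 0.30, adjusted p = 8.4e-08), while clec-51 (B0218.6) fell after it (10.57, 11.17 and 10.86 over 8.93, 9.10 and 9.57 to 3.16, 3.09 and 3.49), a change of -7.62 (SE 0.24, adjusted p = 2.7e-08). The gene clec-222 (C03E10.6) passed through a peak at Day 6 (11.94, 11.93 and 11.87) and stood at 9.30, 9.29 and 9.29 at Day 15 against 3.04, 3.36 and 2.93 at L4, a change of 6.18 (SE 0.16, adjusted p = 1.4e-08). Saposin-like genes, whose family holds pore-forming antibacterial peptides, had 8 of 15 lower and 2 higher. The gene spp-4 (T08A9.8) went from 10.42, 10.50 and 10.61 to 2.96, 3.41 and 3.41, a change of -7.25 (SE 0.26, adjusted p = 5.3e-08).

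Digestive and lysosomal proteases fell with the intestinal genes. Of 27 aspartyl, cathepsin and related proteases, 19 fell and 2 rose (median -2.88), and 11 fell by 10-fold or more. asp-13 (F28A12.4), an aspartyl protease, went from 12.48, 12.70 and 12.54 over 10.73, 10.98 and 11.06 to 2.80, 3.02 and 3.26, a change of -9.55 (SE 0.18, adjusted p = 6.9e-09), at least 381-fold. Its relative asp-14 (K10C2.3) went from 12.38, 12.23 and 12.29 over 7.96, 8.42 and 8.10 to 4.62, 4.37 and 4.14, a change of -7.92 (SE 0.19, adjusted p = 1e-08). In ctsa-1.2 (F13D12.6), a cathepsin A-like carboxypeptidase, the Day 6 level (12.53, 12.44 and 12.73) was above that of the larva in every array (11.84, 12.27 and 12.20) and the Day 15 level was 4.55, 5.28 and 4.78, a net change of -7.23 (SE 0.23, adjusted p = 2.8e-08). Groups did not overlap in these genes. The cathepsin B-like gene cpr-2 (F36D3.9) was near background until Day 6. It passed the filter only through Day 15, so its direction was set by the filter. It had 1.98, 2.49 and 2.02 at L4, 2.64, 2.57 and 2.36 at Day 6 and 9.25, 8.57 and 8.71 at Day 15, a change of 6.68 (SE 0.23, adjusted p = 4.8e-08), at least 28.7-fold. The gene asp-17 (Y39B6A.24) had 3.93, 6.53 and 3.73 at L4 and 7.01, 7.54 and 5.64 at Day 15, a change of 2.00 (SE 0.78, adjusted p = 0.043) with overlapping arrays that lost its call in 11 of 20 settings.

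Enzymes that conjugate and clear foreign compounds were largely lost. Of 53 UDP-glucuronosyltransferases 36 fell and 5 rose (median -1.96), and of 32 glutathione S-transferases 21 fell and 3 rose (median -2.71). The gene ugt-6 (ZC455.4) went from 12.31, 10.52 and 11.76 over 10.03, 10.02 and 10.22 to 3.54, 3.85 and 3.64, a change of -7.85 (SE 0.39, adjusted p = 3.6e-07), at least 185-fold. The gene gst-10 (Y45G12C.2), whose product detoxifies a lipid peroxidation product, went from 12.24, 11.99 and 12.08 over 9.08, 9.48 and 9.34 to 4.12, 4.19 and 4.30, a change of -7.90 (SE 0.17, adjusted p = 6.9e-09), 239-fold. The gene gst-27 (Y53F4B.30) went from 12.42, 12.26 and 12.25 over 8.16, 8.05 and 8.26 to 4.65, 4.89 and 4.48, a change of -7.64 (SE 0.17, adjusted p = 7.4e-09). All 3 stepped down at each age with no overlap. Against this, gst-24 (F37B1.1) rose from 4.50, 4.83 and 4.65 to 11.89, 12.02 and 12.39 at Day 6 and 10.50, 10.15 and 10.28 at Day 15, a change of 5.65 (SE 0.19, adjusted p = 4.7e-08), 50.2-fold. Cytochromes P450, which oxidize lipids and toxins, had 20 of 49 members lower and 15 higher, beside 26.7% and 32.3% of all genes. The gene cyp-35A2 (C03G6.15) fell from 11.01, 9.52 and 11.53 to 7.41, 7.63 and 7.48, a change of -3.18 (SE 0.44, adjusted p = 0.00019), and cyp-13A5 (T10B9.2) rose from 3.46, 3.22 and 3.30 over 7.50, 6.74 and 8.62 to 10.05, 9.74 and 10.12, a change of 6.64 (SE 0.40, adjusted p = 1.2e-06).

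Of 34 antioxidant and metal-binding genes 12 were lower and 10 higher, beside 26.7% and 32.3% of all genes. The glutathione peroxidase gene gpx-5 (C11E4.1) went from 10.31, 10.44 and 10.17 over 9.09, 9.11 and 9.39 to 4.44, 4.61 and 3.97, a change of -5.97 (SE 0.21, adjusted p = 4.7e-08), and the methionine sulfoxide reductase gene msra-1 (F43E2.5) from 10.61, 10.73 and 11.30 to 5.48, 5.84 and 5.73, a change of -5.20 (SE 0.22, adjusted p = 1.3e-07). The ferritin gene ftn-1 (C54F6.14) rose from 7.06, 3.86 and 5.20 to 11.68, 11.47 and 11.04 at Day 6 and 11.14, 11.45 and 11 at Day 15, a change of 5.82 (SE 0.66, adjusted p = 6e-05), at least 54.8-fold. The metallothionein gene mtl-1 (K11G9.6) rose from 10.92, 10.32 and 10.14 to 13.83, 13.82 and 13.85, a change of 3.37 (SE 0.21, adjusted p = 1.4e-06), and its 3 Day 15 arrays differed by 0.03 at most. Superoxide dismutase genes sod-1, sod-2 and sod-3 and the peroxiredoxin genes prdx-2, prdx-3 and prdx-6 were not called.

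Lipid metabolism lost members of both synthesis and breakdown. Of 18 genes for fatty acid desaturation and elongation 10 fell and 1 rose, and of 73 genes for fatty acid breakdown and transport 29 fell and 8 rose. acdh-1 (C55B7.4), an acyl-CoA dehydrogenase of propionate breakdown, was the only gene of another kind among the 12 largest falls with the floor. It had 13.19, 12.92 and 13.09 at L4, 6.16, 8.38 and 7.88 at Day 6 and 2.64, 3.17 and 2.92 at Day 15, a change of -10.16 (SE 0.49, adjusted p = 2.9e-07), at least 536-fold. The elongase gene elo-5 (F41H10.7), needed for branched-chain fatty acids, went from 12.05, 11.79 and 11.90 over 9.84, 9.36 and 10.11 to 5.10, 4.62 and 4.93, a change of -7.03 (SE 0.23, adjusted p = 3.3e-08). The desaturase gene fat-7 (F10D2.9) went from 10.29, 9.94 and 10.30 over 6.11, 6.57 and 7.55 to 2.08, 2.46 and 2.28, a change of -7.90 (SE 0.34, adjusted p = 1.4e-07), opposite to its relative fat-5. The fatty acid binding protein gene lbp-7 (T22G5.2) went from 11.25, 11.32 and 11.16 to 4.87, 4.52 and 4.93, a change of -6.47 (SE 0.19, adjusted p = 1.9e-08). No Day 15 array of these 4 genes reached a Day 6 array.

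Energy metabolism moved less. Of 65 genes of the respiratory chain 21 fell and 1 rose (median -0.66), and 24 had a 95% interval within 2-fold. Without L4 replicate 2, 16 fell. In the citric acid and glyoxylate cycles 10 of 27 fell and 0 rose (median -0.71), and in glycolysis 7 of 19 fell (4 without L4 replicate 2) and 1 rose. The ATP synthase gene asb-2 (F02E8.1) went from 11.46, 11.55 and 11.52 to 8.12, 7.88 and 7.93, a change of -3.53 (SE 0.16, adjusted p = 1.9e-07), and the isocitrate dehydrogenase gene idhg-2 (C30F12.7) from 11.81, 11.40 and 11.43 to 8.39, 8.24 and 8.22, a change of -3.26 (SE 0.17, adjusted p = 4.3e-07). Neither had overlapping arrays. The mitochondrial chaperonin gene hsp-60 (Y22D7AL.5) fell from 11.47, 11.42 and 11.03 over 8.65, 8.20 and 7.21 to 7.05, 6.53 and 6.72, a change of -4.54 (SE 0.35, adjusted p = 5e-06), 23.3-fold.

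Neuronal genes had a smaller median change than those of muscle or intestine, and many were not called. Of 39 genes for transmission at synapses 19 fell and 3 rose (median -0.93), with snb-1, unc-64, unc-10 and unc-104 among the 17 not called. The gene bas-1 (C05D2.4), for an enzyme of dopamine and serotonin synthesis, went from 11.53, 10.57 and 11.30 over 8.69, 8.74 and 8.66 to 5.90, 6.54 and 6.07, a change of -4.96 (SE 0.27, adjusted p = 6.3e-07). The gene unc-25 (Y37D8A.23), for the GABA-making enzyme, held its level to Day 6 (7.47, 7.42 and 7.73 and 7.17, 6.85 and 7.62) and had 4.82, 4.41 and 4.44 at Day 15, a change of -2.98 (SE 0.23, adjusted p = 5.5e-06). In the touch neurons' tubulin genes mec-7 (ZK154.3) and mec-12 the fall was steeper, with 10.67, 9.98 and 10.50 at L4 and 5.30, 5.11 and 5.47 at Day 15 for mec-7, a change of -5.09 (SE 0.23, adjusted p = 1.9e-07). The octopamine synthesis gene tbh-1 (H13N06.6) ran against the list, from 7, 7.35 and 6.07 to 12.49, 12.41 and 12.50 at Day 6 and 12.12, 11.81 and 11.83 at Day 15, a change of 5.11 (SE 0.30, adjusted p = 9.6e-07), 34.6-fold. The 6 neuron markers, summed per array, changed less than those of the intestine or muscle, from between 11.86 and 11.95 at L4 to between 11.20 and 11.59 at Day 15.

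Of 65 neuropeptide genes 36 fell and 4 rose (median -1.16). The gene nlp-12 (M01D7.5), a cholecystokinin-like peptide of a tail neuron, went from 11.76, 11.45 and 11.09 over 9.45, 8.94 and 9.19 to 7.64, 8.08 and 7.50, a change of -3.69 (SE 0.24, adjusted p = 2e-06). The gene nlp-39 (C54C8.9) rose from 2.24, 2.42 and 1.92 to 9.60, 9.09 and 9.63 and 7.84, 8.94 and 8.61, a change of 6.27 (SE 0.30, adjusted p = 2.9e-07), at least 22.1-fold. Insulin-like peptides, the ligands of the DAF-2 receptor, had 5 of 18 lower (2 without L4 replicate 2) and 8 higher. These shares, 27.8% and 44.4%, stand beside 26.7% and 32.3% of all genes, so the lower share was close to that of all genes. The gene ins-33 (W09C5.4) fell from 8.64, 9.86 and 9.14 to 3.02, 3.69 and 2.85, a change of -6.03 (SE 0.49, adjusted p = 6.9e-06). The gene ins-23 (M04D8.3) appeared only late, with 3.09, 3.67 and 3.53 at L4, 3.56, 3.02 and 4.04 at Day 6 and 8.78, 8.74 and 8.82 at Day 15, a change of 5.35 (SE 0.27, adjusted p = 3.8e-07), at least 27.5-fold. As ins-23 passed the filter only through Day 15, its direction was set by the filter. The gene daf-28 (Y116F11B.1) had 5.69, 8.41 and 8.23 at L4 and 5.60, 5.56 and 5.75 at Day 15, a change of -1.81 (SE 0.63, adjusted p = 0.029) with overlapping arrays that was not called in 9 of 20 settings, one being the fit without L4 replicate 2 (adjusted p = 0.07). Only 26 of 1276 chemoreceptor genes passed the filter, so their counts (8 lower and 11 higher, or 30.8% and 42.3%, beside 26.7% and 32.3% of all genes) describe few members. A member that passed only through 1 age had to be higher there, so its direction was set by the filter. Among the 26, sri-39 (F33H12.2) was under 4 in all L4 and Day 6 arrays and so passed only through Day 15. It had 9.70, 9.42 and 10.42 there, a change of 7.56 (SE 0.25, adjusted p = 3.5e-08), at least 57.5-fold. The gene srh-237 (T05E12.7) did the reverse by Day 6, with 9.08, 9.91 and 8.10 at L4 and 2.19, 1.93 and 1.84 at Day 15, a change of -7.04 (SE 0.39, adjusted p = 6.3e-07).

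**Figure D3:**
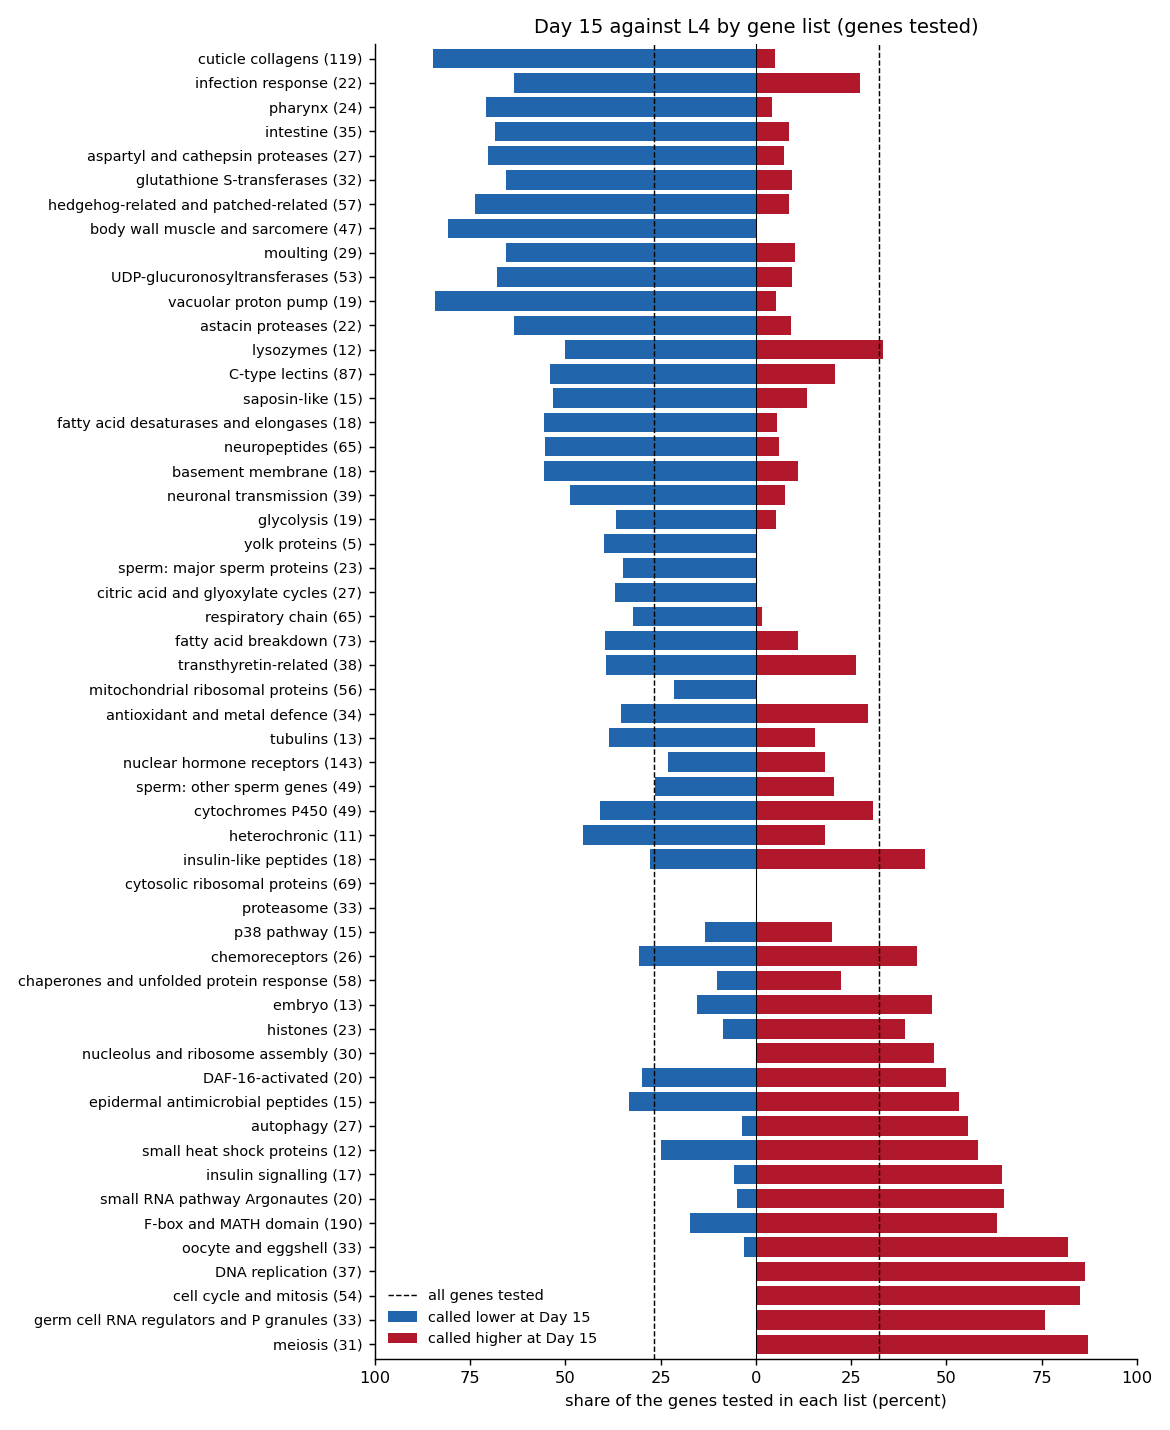
Share of the tested genes of each of 54 gene lists that fell (blue, to the left) or rose (red, to the right) from L4 to Day 15, in percent, ordered by the lists' median change from the lowest at the top. Numbers in parentheses are genes tested, and the dashed lines mark all genes, 26.7% lower and 32.3% higher.

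Most sperm transcripts were lower at Day 6 than at L4 and then rose again. Major sperm proteins form the cytoskeleton by which nematode sperm crawl, and in hermaphrodites sperm are normally made only around the L4 stage. All 23 major sperm protein genes on the array were lower at Day 6 than at L4, by a median of -2.45, and all 23 rose again from Day 6 to Day 15, by a median of 1.70. The list's median level was 12.25, 12.69 and 12.65 in the L4 arrays, 10.38, 9.44 and 10.21 at Day 6 and 11.68, 11.76 and 11.92 at Day 15. Of the 23, 10 were regained within 2-fold and 8 were still called lower at Day 15, and 2 without L4 replicate 2. The net median was -0.81, and the most negative change was -1.63. That gene, msp-50 (C34F11.4), had 11.59, 12.37 and 11.99 at L4, 8, 7.23 and 7.51 at Day 6 and 10.15, 10.42 and 10.50 at Day 15, a net change of -1.63 (SE 0.27, adjusted p = 0.00054). These genes are near-identical copies whose probe sets can bind each other's transcripts, so the 23 are not separate measurements.

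The other sperm genes took this path in part. Of 49, 36 were lower at Day 6 than at L4 and 44 rose from Day 6 to Day 15, which left 13 below the larval level, 10 above it and 26 with no call (median -0.08). The shares below and above, 26.5% and 20.4%, stand beside 26.7% and 32.3% of all genes, so the share below was that of all genes. Of the 49, 5 were regained within 2-fold. Their median level was 8.07, 8.40 and 8.55 at L4, 6.20, 5.14 and 5.59 at Day 6 and 8.63, 8.97 and 8.97 at Day 15. The gene spe-46 (W06D4.2) was lost at Day 6 (3.89, 3.59 and 3.68) and came back in part, to 8.04, 7.60 and 8.71 against 8.95, 10.41 and 10.21 at L4, a net change of -1.74 (SE 0.41, adjusted p = 0.0043). The gene fer-1 (F43G9.6), for a ferlin that sperm need for membrane fusion, ended above the larval level, with 3.39, 5.35 and 5.01 at L4, 5.80, 5.35 and 5.86 at Day 6 and 8.63, 8.24 and 8.51 at Day 15, a change of 3.88 (SE 0.45, adjusted p = 7e-05). The gene spe-40 (Y37E11AR.7) did so from background, with 3.44, 3.43 and 3.11, 4.46, 4.89 and 4.71 and 7.38, 7.59 and 6.64, a change of 3.88 (SE 0.26, adjusted p = 2.4e-06). The sperm markers, summed per array, lay between 13.04 and 13.83 at L4, 10 and 10.96 at Day 6 and 13 and 13.34 at Day 15, while the marker spe-9 was under 4 at L4 and Day 15.

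The 4 regained genes with the largest excursion are less well described. C50E10.1 had 10.52, 10.67 and 11.22 at L4, 6.22, 4.86 and 5.56 at Day 6 and 10.81, 10.87 and 10.67 at Day 15. Its fall to Day 6 was -5.26 (SE 0.33, adjusted p = 2.4e-06), its rise from there 5.24 (SE 0.33, adjusted p = 4.9e-06) and its net change -0.02 (SE 0.33, adjusted p = 0.96). D1081.5 had 9.03, 8.78 and 9.51, 3.79, 3.24 and 3.84 and 9.03, 9.33 and 9.71, a net change of 0.25 (SE 0.27, adjusted p = 0.43). In both, the L4 and Day 15 arrays overlapped and the Day 6 arrays lay far below. The same held for dct-9 (W03F11.3), with a net change of -0.07, and for R05D3.5, with -0.31.

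The opposite path was led by genes that were at background in larvae. The gene sdz-6 (C43D7.5) had 3.08, 3.05 and 2.84 at L4, 8.81, 7.99 and 10 at Day 6 and 2.79, 3.16 and 2.97 at Day 15, so that it was well above background only at Day 6. The collagen gene col-158 (D2023.7) had 3.06, 3.61 and 3.46, 8.58, 8.68 and 8.38 and 3.65, 3.93 and 3.56 at the 3 ages, and mltn-9 (F19H8.4), a gene related to the moulting gene mlt-10, had 3.17, 3 and 3.46, 7.16, 7.45 and 7.75 and 3.37, 3.39 and 2.85. T20D4.15 passed from 4.60, 3.79 and 4.33 over 8.63, 7.91 and 8.74 to 4.48, 4.16 and 4.15. Their net changes were -0.02, 0.34, -0.01 and 0.02, and none was called.

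Mitochondrial ribosomal proteins also dipped and in part recovered, by smaller amounts. Of 56, 30 were lower at Day 6 than at L4 (median -1.06), 8 rose from Day 6 to Day 15 (median 0.67), and at Day 15 12 remained below the larval level, with 35 whose 95% interval lay within 2-fold. The gene mrpl-15 (Y92H12BR.8) had 10.15, 10.19 and 10.23 at L4, 8.23, 8.03 and 7.88 at Day 6 and 8.53, 8.60 and 8.53 at Day 15, a net change of -1.64 (SE 0.15, adjusted p = 1.9e-05). The plot of list medians sets these paths beside those of other lists.

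**Figure D4:**
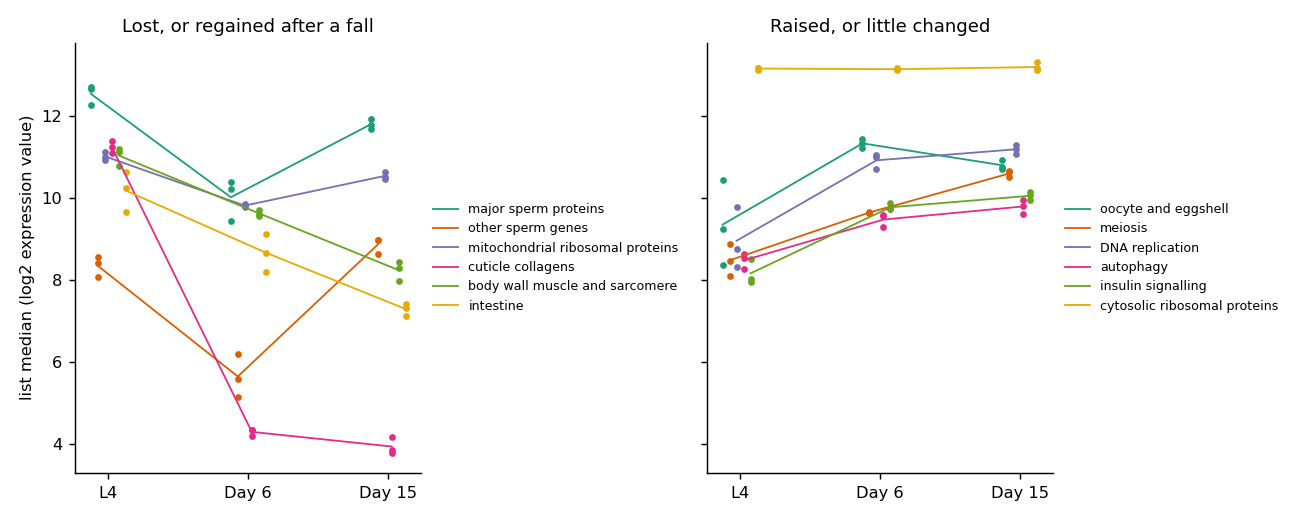
Median log2 expression value of the tested genes of 12 lists in each of the 9 arrays (points), with age means joined by lines. On the left, the 2 sperm lists and the mitochondrial ribosomal proteins fell to Day 6 and rose to Day 15 while collagens, muscle and intestine ended low, and on the right, lists of the germ line, autophagy and insulin signalling ended above their L4 level while cytosolic ribosomal proteins stayed near 13.

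Raised above the larval level were, first of all, genes of the germ line and of cell division. Of 33 oocyte and eggshell genes 27 rose and 1 fell (median 1.77). The caveolin gene cav-1 (T13F2.8), expressed in the germ line and in embryos, had 3.21, 3.21 and 2.64 at L4, 11.14, 11.01 and 10.59 at Day 6 and 9.54, 9.90 and 9.72 at Day 15, a change of 6.70 (SE 0.23, adjusted p = 4.6e-08), at least 52.7-fold. The gene mex-1 (W03C9.7), for an RNA-binding protein of oocytes and early embryos, had 6.27, 9.83 and 7.83 at L4 and 11.10, 10.63 and 10.90 at Day 15, a change of 2.90 (SE 0.73, adjusted p = 0.0061), in which L4 replicate 2 came within 1 unit of the lowest Day 15 array. The homeobox gene ceh-18 (ZC64.3), which acts in the gonad sheath and in muscle, was the member that fell, from 9.50, 9.36 and 9.75 to 7.48, 6.67 and 7.02, a change of -2.48 (SE 0.23, adjusted p = 1.5e-05). Without L4 replicate 2, 31 of the oocyte genes rose. Of 48 genes known from embryos only 13 passed the filter, of which 6 rose and 2 fell.

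Of 33 germ cell RNA regulators 25 rose and 0 fell (median 2.02). Among them were fog-1 and fog-3, which commit germ cells to the sperm fate, and every array of both was higher at each later age. The gene fog-3 (C03C11.2) had 3.5, 3.84 and 3.59 at L4, 6.55, 6.91 and 6.10 at Day 6 and 8.96, 9.22 and 8.96 at Day 15, a change of 5.40 (SE 0.23, adjusted p = 1.3e-07), at least 33.1-fold. The gene fog-1 (Y54E10A.4) had 5.86, 7.26 and 6.01, 10.41, 10.95 and 10.83 and 11.18, 11.39 and 11.10, a change of 4.85 (SE 0.35, adjusted p = 3.6e-06). The P granule helicase gene glh-2 (C55B7.1) went from 6.09, 6.27 and 6.49 over 9.09, 9.51 and 9.45 to 10.22, 10.34 and 10.17, a change of 3.96 (SE 0.18, adjusted p = 2.3e-07), and here L4 replicate 2 lay between the other larval arrays. In meg-1 (K02B9.1), a maternal P granule gene, that array was far above them (3.80, 8.22 and 3.92, against 10.25, 9.97 and 10.13 at Day 15), and the change of 4.80 (SE 1.00, adjusted p = 0.0022) became 6.26 without it. Of 20 Argonaute and small RNA genes 13 rose and 1 fell. The nuclear RNAi gene nrde-1 (C14B1.6) went from 6.44, 5.56 and 5.64 over 8.52, 9.15 and 8.79 to 9.90, 9.83 and 9.69, a change of 3.93 (SE 0.27, adjusted p = 2.4e-06), and the Piwi gene prg-2 (C01G5.2) from 6.72, 7.33 and 7.82 to 10.54, 10.38 and 9.92, a change of 2.99 (SE 0.31, adjusted p = 3.6e-05). The gene that fell, alg-1 (F48F7.1), an Argonaute of the microRNA pathway, had a change of -1.94 by its brightest probe set and -0.25 by the mean of its probe sets.

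Meiosis, DNA replication and the cell cycle rose with no member lower. In meiosis 27 of 31 rose (median 2.04), in DNA replication 32 of 37 (median 1.83) and in the cell cycle 46 of 54 (median 2.00), against 32.3% of all genes. The gene syp-1 (F26D2.2), for a protein of the synaptonemal complex, had 9.63, 8.80 and 9.67 at L4, 11.30, 11.27 and 11.10 at Day 6 and 12.69, 12.51 and 12.45 at Day 15, a change of 3.18 (SE 0.24, adjusted p = 5e-06). The gene zim-2 (T07G12.10), whose product binds pairing centres of autosomes, had 6.72, 6.60 and 6.79, 8.71, 9.09 and 8.99 and 10.29, 10.14 and 9.92, a change of 3.41 (SE 0.18, adjusted p = 4.4e-07). The replicative helicase gene mcm-4 (Y39G10AR.14) had 5.89, 9.24 and 7.62 at L4 and 11.25, 11.30 and 11.31 at Day 15, a change of 3.70 (SE 0.68, adjusted p = 0.0011), with larval arrays that differed by over 3 units. The condensin gene smc-4 (F35G12.8) had 7.15, 5.96 and 7.15 and 10.62, 10.54 and 10.62, a change of 3.84 (SE 0.30, adjusted p = 6.1e-06), and here L4 replicate 2 was the lowest and not the highest larval array. The larval list medians for replication were 8.31, 9.78 and 8.76, against 11.07, 11.18 and 11.29 at Day 15, so that the groups did not overlap with L4 replicate 2 included. The germ cell markers, summed per array, lay between 12.37 and 13.58 at L4 and between 14.20 and 14.35 at Day 15.

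Of 23 histone genes tested 9 rose (39.1%), 2 fell (8.7%) and 12 were not called, beside 32.3% higher and 26.7% lower over all genes. The gene his-64 (F22B3.1) had 6.82, 7.91 and 6.56 at L4, 8.96, 8.34 and 7.96 at Day 6 and 11.52, 11.84 and 11.52 at Day 15, a change of 4.53 (SE 0.38, adjusted p = 8.2e-06), 23.1-fold, and his-62 (F55G1.3) had 4.97, 6.19 and 5.46, 6.75, 7.16 and 6.46 and 9.51, 9.38 and 9.59, a change of 3.95 (SE 0.31, adjusted p = 5.9e-06). Most of the rise in both came after Day 6. The members that fell, his-70 and his-71 (F45E1.6), are genes of the H3.3 kind, of which a further one, his-72, rose. The gene his-71 had 11.31, 11.08 and 11.31 at L4, 8.60, 8.26 and 8.26 at Day 6 and 8.99, 9.41 and 9.44 at Day 15, a change of -1.95 (SE 0.19, adjusted p = 2.4e-05).

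Genes of nucleolus and ribosome assembly rose in 14 of 30 cases (11 without L4 replicate 2) and fell in 0. The core of the insulin signalling pathway, which controls lifespan through the factor DAF-16, rose in 11 of 17 and fell in 1 (median 1.52). The receptor gene daf-2 (Y55D5A.5) had 4.18, 3.54 and 3.26 at L4, 6.69, 6.55 and 6.50 at Day 6 and 7.07, 7.46 and 6.85 at Day 15, a change of 3.47 (SE 0.26, adjusted p = 4.6e-06), or 2.25 with the mean of its probe sets. The kinase gene age-1 (B0334.8) went from 8.04, 8.85 and 8.10 to 11.02, 10.85 and 10.74, a change of 2.54 (SE 0.23, adjusted p = 1.4e-05), and the phosphatase gene daf-18 (T07A9.6), which opposes it, from 7.15, 9.47 and 7.79 to 10.84, 10.39 and 10.93, a change of 2.58 (SE 0.51, adjusted p = 0.0016). The kinase gene sgk-1 (W10G6.2) fell from 10.17, 7.59 and 8.94 to 6.74, 6.92 and 6.09, a change of -2.32 (SE 0.56, adjusted p = 0.0049). The factor's own transcript, daf-16, was not called. Of 20 known target genes that DAF-16 switches on, 10 rose and 6 fell, or 50% and 30%, beside 32.3% and 26.7% of all genes. The share that fell was thus close to that of all genes. The list held the rises of mtl-1 and ftn-1 beside the fall of dod-6 (T20G5.7), which went from 8.87, 8.48 and 9.02 to 4.72, 4.54 and 3.87, a change of -4.41 (SE 0.31, adjusted p = 2.8e-06). Autophagy genes rose in 15 of 27 cases (median 1.07) and fell in 1. The gene atg-7 (M7.5), for the enzyme that activates the conjugation of autophagy proteins, had 6.83, 6.86 and 6.69 at L4, 8.79, 8.72 and 8.95 at Day 6 and 9.43, 9.33 and 9.47 at Day 15, a change of 2.62 (SE 0.15, adjusted p = 8.6e-07). The member that fell, sqst-2 (Y40C5A.1), had 8.52, 8.62 and 7.96 and 4.17, 4.10 and 3.60, a change of -4.41 (SE 0.46, adjusted p = 3.5e-05).

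Small heat shock genes rose in 7 of 12 cases and fell in 3, beside 32.3% and 26.7% of all genes. The gene hsp-12.6 (F38E11.2) had 1.40, 2.03 and 1.52 at L4, 2.89, 2.89 and 2.78 at Day 6 and 7.10, 5.96 and 7.25 at Day 15, a change of 5.12 (SE 0.34, adjusted p = 1.9e-06), at least 6.82-fold. As hsp-12.6 passed the filter only through Day 15, its direction was set by the filter. In the heat-inducible genes L4 replicate 1 stood above the other larval arrays. The gene hsp-16.41 (Y46H3A.2) had 7.84, 3.07 and 3.5 at L4 and 9.08, 7.62 and 8.18 at Day 15, a change of 3.49 (SE 1.13, adjusted p = 0.021) with overlapping arrays that lost its call in 4 of 20 settings. The arrays of hsp-70 (C12C8.1) overlapped too, with 9.82, 4.59 and 6.31 and 11.02, 9.95 and 9.70, a change of 3.32 (SE 1.23, adjusted p = 0.036). It lost its call in 9 of 19 settings, one being the fit without L4 replicate 2 (adjusted p = 0.086). The gene hsp-12.1 (T22A3.2) fell from 8.56, 8.46 and 8.81 to 3.72, 3.85 and 3.66, a change of -4.87 (SE 0.22, adjusted p = 2e-07). Of 58 other chaperones and genes of the unfolded protein response 13 rose (10 without L4 replicate 2) and 6 fell. These shares, 22.4% and 10.3%, were both below the 32.3% and 26.7% of all genes, and 23 members had a 95% interval within 2-fold.

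The 12 largest rises with the floor, led by ilys-3, included secreted defence proteins, and all 12 were already called higher at Day 6. The antibacterial factor gene abf-2 (C50F2.10) had 3.87, 3.66 and 4.34 at L4, 12.27, 11.77 and 12.14 at Day 6 and 11.70, 11.71 and 11.79 at Day 15, a change of 7.78 (SE 0.22, adjusted p = 1.7e-08), at least 197-fold. The saposin-like gene spp-12 (T22G5.7) had 2.90, 3.14 and 3.24, 11.17, 10.11 and 10.44 and 10.85, 10.67 and 11.09, a change of 7.78 (SE 0.27, adjusted p = 5e-08). The chitinase gene cht-1 (C04F6.3) had 2.88, 2.91 and 2.64, 10.65, 11.18 and 10.65 and 11.26, 11 and 10.74, a change of 8.19 (SE 0.22, adjusted p = 1.4e-08). The noncoding RNA tts-1 (F09E10.11), found abundant in long-lived worms, went from 3.34, 4.01 and 2.45 to 11.24, 10.60 and 10.89, a change of 7.64 (SE 0.36, adjusted p = 2.7e-07). In ule-1 (W03F11.1), a gene expressed in the uterus, the larval arrays ran from near background to 8.08 in replicate 2 (4.74, 8.08 and 2.55, against 12.85, 12.88 and 12.81 at Day 15), so that its change of 7.72 (SE 1.10, adjusted p = 0.00024) became 9.20 without that array. ZK177.9, C38D9.2, F15D4.5, spi-2, C53B7.3 and cup-16 complete the 12, and their changes lay between 6.96 for cup-16 and 8.45 for ZK177.9. Of 15 epidermal antimicrobial peptide genes 8 rose (5 without L4 replicate 2) and 5 fell. The gene cnc-7 (F53H2.2) rose from 5.25, 4.95 and 6.77 to 12.57, 12.43 and 12.37 and 11.89, 12.01 and 11.89, a change of 6.27 (SE 0.41, adjusted p = 1.8e-06), and nlp-31 (B0213.6) from 11.39, 9.98 and 11.24 to 12.56, 12.14 and 11.95, a change of 1.35 (SE 0.37, adjusted p = 0.01) that fell short of 2-fold without L4 replicate 2 (0.90), whereas nlp-25 (Y43F8C.1) fell from 12.66, 12.41 and 12.88 to 8.39, 7.64 and 7.16, a change of -4.92 (SE 0.38, adjusted p = 4.9e-06).

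The F-box and MATH domain genes, large families that feed proteins to the ubiquitin system, formed, by genes tested, the longest of the lists with more rises than falls. Of 190 tested (of 395 on the array) 120 rose and 33 fell (median 1.66, or 0.90 with the floor). The gene bath-36 (Y75B12B.4) had 4.76, 5.26 and 4.92 at L4, 8.35, 7.68 and 7.88 at Day 6 and 10.91, 11.09 and 11.17 at Day 15, a change of 6.08 (SE 0.22, adjusted p = 6.2e-08), 67.5-fold. The gene fbxa-163 (C08E3.6) had 2.71, 2.84 and 3.10, 9.71, 9.82 and 10.28 and 9.80, 9.65 and 10.15, a change of 6.98 (SE 0.22, adjusted p = 2.9e-08). The gene math-4 (C08F1.5) fell from 10.19, 8.05 and 8.59 over 6.10, 6.63 and 6.08 to 3.03, 3.06 and 2.80, a change of -5.98 (SE 0.48, adjusted p = 6.3e-06). A member that passed the filter only through the adult ages had to be higher there, so the count describes the 190 tested and not the family. Nuclear hormone receptors (33 of 143 lower, 26 higher) and transthyretin-related genes (15 of 38 lower, 10 higher) had members in both directions, beside 26.7% and 32.3% of all genes. In them nhr-68 (H12C20.3), a receptor that controls propionate breakdown genes such as acdh-1, fell from 10.73, 10.07 and 10.20 over 7.28, 7.59 and 7.98 to 3.12, 3.52 and 3.77, a change of -6.86 (SE 0.27, adjusted p = 9.4e-08), and ttr-50 (F58B3.9) rose from 3.75, 4.71 and 3.62 to 8.97, 9.32 and 9.03, a change of 5.08 (SE 0.29, adjusted p = 8.7e-07).

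Cytosolic ribosomal protein and proteasome genes ended near their larval level. Of 69 cytosolic ribosomal protein genes 0 fell and 0 rose, their changes ran from -0.91 to 0.56 with a median of 0.07, and in 67 the 95% interval lay within 2-fold, against 18% of all genes. Of 33 proteasome genes 0 fell and 0 rose (median 0.23), with 27 intervals within 2-fold. In the p38 and related kinase pathways 2 of 15 fell and 3 rose, or 13.3% and 20%, beside 26.7% and 32.3% of all genes. Of these 15, 2 had a 95% interval within 2-fold. The gene pmk-1 (B0218.3) itself had 8.54, 7.12 and 7.34 at L4, 8.51, 8.42 and 8.42 at Day 6 and 8.30, 8.38 and 8.40 at Day 15, a change of 0.69 (SE 0.33, adjusted p = 0.086) with a 95% interval from -0.06 to 1.44. Its Day 15 arrays lay inside the range of the larval arrays, but only the larval array at 8.54 was above them. By qRT-PCR the study reports a modest decline of pmk-1 in old worms relative to larvae. Over 20 settings the change of pmk-1 on the arrays ran from 0.42 to 1.13, and pmk-1 stayed not called in 19 of them. The adaptor gene tir-1 (F13B10.1), upstream of it, rose from 9.11, 8.29 and 8.05 to 10.60, 10.30 and 10.17, a change of 1.87 (SE 0.27, adjusted p = 0.00028). Of 13 tubulin genes 5 fell and 2 rose. The tubulin gene tba-1 (F26E4.8), a reference for transcript levels in the study, had 12.38, 12.76 and 12.81 at L4 and 13.31, 13.10 and 13.39 at Day 15, a change of 0.62 (SE 0.18, adjusted p = 0.011) that did not reach 2-fold, while tbb-6 (T04H1.9), a stress-inducible tubulin, rose from 5.01, 4.70 and 4.34 over 9.83, 9.52 and 9.98 to 11.03, 10.56 and 10.72, a change of 6.09 (SE 0.23, adjusted p = 7.5e-08), 68.0-fold.

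The X chromosome differed from the autosomes in these counts. Of 1597 genes tested on X, 45.4% fell and 21.7% rose, with a median change of -0.75. On the 5 autosomes 16.3% (I) to 31.8% (V) fell and 29.8% (V) to 37.9% (I) rose, with medians from 0.09 (V) to 0.56 (III). Genes that fell to Day 6 and rose again to Day 15 were nearly missing from X, with 20 of 1597 (1.25%), against 6.45% on V to 14% on IV. As background, genes expressed in the germ line are known to be sparse on X. The chromosome assignments come from RefSeq's WBcel235 gene table, in which 11728 of the genes tested have one, and no test was made of these shares, since genes of a chromosome are not independent replicates.

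**Figure D5:**
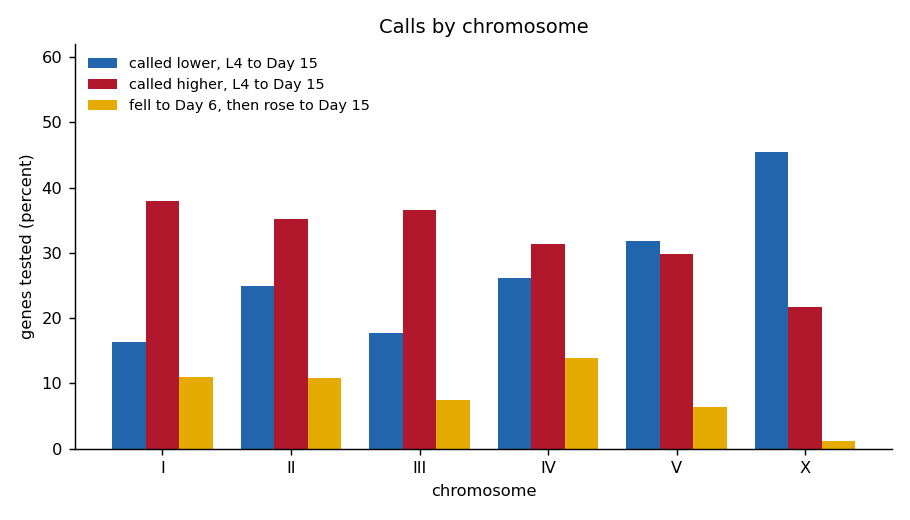
Share of the genes tested on each chromosome that fell from L4 to Day 15 (blue), rose from L4 to Day 15 (red) or fell to Day 6 and then rose to Day 15 (yellow), in percent. X has the largest share of falls, 45.4%, and the smallest shares of rises, 21.7%, and of the fall and rise path, 1.25%.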

How the data were processed

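RNA of whole worms was hybridised to the Affymetrix GeneChip C. elegans Genome Array, 3 arrays for each of L4, Day 6 and Day 15. The deposited table holds log2 expression values that the authors made with GCRMA, and the submitters' notes also name MAS5. The values were used as deposited, with no further scaling. Probe sets were named from the platform annotation, with symbols and chromosomes from RefSeq's WBcel235 gene table. Of 22625 probe sets 20766 named 1 gene, 887 several and 972 none, and only the first kind was used. A gene took its probe set with the highest mean over all arrays, and was tested where the mean of 1 or more ages reached 4.

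All 9 arrays were fitted with 1 mean per age in limma 3.58.1 (lmFit and eBayes, R 4.3.3), and p-values were adjusted by Benjamini-Hochberg over the 11758 genes tested. Summaries were made in Python 3.11.15 with pandas 2.3.3. The calling steps were tested on simulated data. Genes to name were drawn by rule from the 12 largest falls and rises (values under 4 set to 4) among called genes whose L4 and Day 15 arrays did not overlap. The rule also took 4 regained genes of each path, and per list up to 4 of the largest changes in its main direction and up to 2 against it, beside genes the study itself follows. The text prints only a part of these genes, picked with their values known. Other genes named as not called, and col-19, were chosen after their values were seen. The comparison and the gene lists were chosen with earlier results of these data known, so the lists are described by counts and medians beside all genes and given no test. Arrays were left out in turn, and the filter, fold minimum, probe set choice, centring and test were changed. Sequences were not analysed here. The number of arrays limits the precision.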

Additional observations from a re-analysis of the deposited data

How the results depend on the processing

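The counts of falls and rises between L4 and Day 15 stayed within 1.5 times their main values, at 3001 to 3278 and 3641 to 3934 when 1 array was left out, and at 2349 to 3717 and 2675 to 4750 over the other settings. Centring each array on its own median moved the median change of all genes from 0.23 to 0.53. Counts of regained genes depended most on their definition. Regained after a fall numbered 196 and after a rise 122, and became 661 and 277 where a change under 2-fold and not called took the place of the interval, 334 and 242 with no fold minimum, 104 and 77 with the methods' t-test unadjusted, and 104 and 75 with it adjusted by Benjamini-Hochberg. When 1 array was left out the count regained after a fall lay between 112 and 234, with 129, 125 and 112 without Day 15 replicates 1, 2 and 3. Fewer arrays widen the interval that defines the class. Genes raised by Day 6 with no further call fell from 2184 to 1449 when only probe sets without the _s or _x mark were used, a setting with 8452 genes to test. With replicate number as a block, 3126 genes fell and 3797 rose, 6893 of these calls being shared with the fit without it. The labels do not say that a number joins an L4 array to an adult array. Deviations of same-numbered arrays correlated between -0.06 and 0.19, the highest value being that of L4 and Day 15 in replicate 1. Whether the arrays were paired is not settled by this, and they were treated as unpaired.

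Of 293 named genes that were called, 262 kept their call in every setting that gave them a value (19 or 20). The change of fbl-1 turned to -1.78 with the mean of its probe sets. Medians of 44 of the 54 lists kept their sign in all settings. Exceptions were lists with medians near 0, antioxidant genes, tubulins, chemoreceptors, the p38 pathway, and epidermal antimicrobial peptides, whose median of 1.01 became -1.86 with only unmarked probe sets. With no filter, which adds genes near background, medians of several lists shrank, that of the infection response from -4.52 to -0.63. Shares of promoters with a motif were not run. Values under 4 are near background and carry no fold of their own.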
